A study of Mus musculus with 8 samples.

Results

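Fatty acids are the main fuel of the adult heart, and 33 genes of their uptake, storage, transport into mitochondria, oxidation and control were followed here in pressure-loaded mouse hearts. The genes were chosen by name from the pathway, and all 33 were found among the 30445 rows of the deposited gene table. All 33 passed the filter on low counts that left 17787 genes for testing. The hearts came from c57 mice 8 weeks after transverse aortic constriction (TAC), in which a ligature on the aortic arch makes the left ventricle pump against pressure. There were 4 libraries labelled wildtype (WT) and 4 labelled Mertk knockdown, and every heart had been operated, so no unoperated heart was compared. MERTK is a receptor tyrosine kinase with which macrophages take up dying cells. The labels do not say how or in which cells Mertk was lowered, give no age or sex, and do not tell whether replicates were different mice. The p-values thus weigh the difference between the groups against the scatter of these libraries, which may be technical in part.

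In the heart, lipoprotein lipase at the vessel wall frees fatty acids from circulating fat, binding proteins and acyl-CoA synthetases trap them in the cell, and the carnitine shuttle carries them into mitochondria. There the beta-oxidation cycle shortens the chain by repeated steps and hands electrons to the respiratory chain through the electron transfer flavoprotein. The nuclear receptor PPAR-alpha and its coactivator PGC-1alpha drive many of these genes, and the programme is known to weaken in overloaded and failing hearts. Pyruvate dehydrogenase kinases work on the other side of the fuel switch: they hold back glucose oxidation when fat is burned.

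The sequences below are the promoter windows of the genes on which the comparisons turn. Each runs from 250 bases before to 50 after a RefSeq start site on GRCm38.p6 (mm10) and is printed 5′ to 3′ along the gene. Pdk4 was the gene whose groups did not overlap, Ucp2 and Cpt1a were the other genes with an unadjusted p under 0.05, and Ucp3 is the neighbour of Ucp2. Capitals mark the nuclear receptor half-site AGGTCA on either strand, and its direct repeat, which is 2 half-sites in the same direction with 1 base of any kind between them, allowing up to 2 mismatches in their 12 bases.
Pdk4 (chr6:5496229-5496528, minus strand): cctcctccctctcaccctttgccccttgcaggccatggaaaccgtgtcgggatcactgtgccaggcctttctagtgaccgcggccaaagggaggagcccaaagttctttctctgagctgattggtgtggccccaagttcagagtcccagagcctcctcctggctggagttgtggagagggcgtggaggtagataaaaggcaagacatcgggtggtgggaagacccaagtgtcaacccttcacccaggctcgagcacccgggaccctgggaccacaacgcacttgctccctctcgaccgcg
Ucp2 (chr7:100493108-100493407, plus strand): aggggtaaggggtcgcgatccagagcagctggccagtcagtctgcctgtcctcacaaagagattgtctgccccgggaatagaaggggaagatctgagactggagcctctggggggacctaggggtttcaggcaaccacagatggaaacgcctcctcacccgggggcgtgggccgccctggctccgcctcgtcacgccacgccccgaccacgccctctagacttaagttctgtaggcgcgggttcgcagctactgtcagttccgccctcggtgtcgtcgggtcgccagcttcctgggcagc
Ucp3 (chr7:100472741-100473040, plus strand): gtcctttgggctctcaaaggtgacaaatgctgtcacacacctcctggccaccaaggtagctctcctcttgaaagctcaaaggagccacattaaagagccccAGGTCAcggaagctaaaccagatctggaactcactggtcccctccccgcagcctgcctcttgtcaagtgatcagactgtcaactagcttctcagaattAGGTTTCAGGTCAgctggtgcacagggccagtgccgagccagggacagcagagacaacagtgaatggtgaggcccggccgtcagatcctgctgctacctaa
Cpt1a (chr19:3323051-3323350, plus strand): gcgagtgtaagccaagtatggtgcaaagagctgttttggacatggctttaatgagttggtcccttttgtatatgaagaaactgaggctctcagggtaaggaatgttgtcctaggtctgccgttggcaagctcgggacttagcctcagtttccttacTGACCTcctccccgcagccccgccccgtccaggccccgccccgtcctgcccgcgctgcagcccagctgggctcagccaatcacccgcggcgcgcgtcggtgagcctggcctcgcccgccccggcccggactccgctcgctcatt

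The windows of Pdk4 and Ucp2 held no match. Ucp3 held an exact half-site 149 bases before the start site and a direct repeat with 2 mismatches from 51 bases before it, whose second arm is an exact half-site. Cpt1a held 1 half-site, on the opposite strand. RefSeq windows were at hand for 27 of the 33 genes, 30 windows in all, because some genes have more than 1 start. The half-site stood in 7 of the 30 windows (23.3%) and in 16.3% of all 32851 windows. The direct repeat stood in 3 of 30 (10%), those of Ucp3, Echs1 and Etfa, and in 3.86% of all windows. The extended site TCAAGGTCA, which contains the half-site, stood in 0 of 30 and in 0.423% of all. These are matches of letters in a short window, not binding sites.

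Hadha and Hadhb encode the alpha and beta subunits of the mitochondrial trifunctional protein, and they lie back to back on chromosome 5. In the deposited coordinates 85 bases separate them (capitals in the Hadhb window below), and the promoter windows of the pair share 228 bases. The window is shown because, by the deposited coordinates, both genes begin within it and are read in opposite directions. The RefSeq start from which the Hadha window was drawn lies outside the printed one. In wildtype their levels had the same order of libraries, and in the labelled group they did not. That order was not particular to the pair: of the 11 beta-oxidation enzymes, all 11 were lowest in wildtype replicate 2 and 10 were highest in wildtype replicate 3. The part of the shared region in these levels was not tested.
Hadhb (chr5:30155003-30155302, plus strand): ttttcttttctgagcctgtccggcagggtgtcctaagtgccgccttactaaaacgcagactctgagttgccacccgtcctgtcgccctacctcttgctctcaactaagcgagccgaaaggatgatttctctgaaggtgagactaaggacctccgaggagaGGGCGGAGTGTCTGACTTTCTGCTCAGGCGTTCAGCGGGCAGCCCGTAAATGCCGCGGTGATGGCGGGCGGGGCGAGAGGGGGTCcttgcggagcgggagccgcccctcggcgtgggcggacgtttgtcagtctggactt

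Levels are given as CPM, read counts brought to one library size with TMM factors, which assume that most genes do not differ. Differences are log2 fold changes, labelled Mertk knockdown minus wildtype, so that values below 0 mean a lower level in the labelled libraries. They come from edgeR's quasi-likelihood test on all genes, and a gene counts as called where p, adjusted by Benjamini-Hochberg over all genes, is under 0.05. Total counts ran from 59287621 to 71571173 per library, and the 33 genes together took 1.29% to 1.82% of them. Mertk itself did not separate the groups: wildtype had 11.0 ± 0.87 CPM and the labelled libraries 11.9 ± 0.951 CPM (SD, n = 4 each), a log2 fold change of 0.10 (edgeR adjusted p = 0.766). Every direction below is therefore that of the labels. In RNA of heart tissue, fewer cells of a type and less RNA per cell cannot be told apart.

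None of the 33 genes was called in either direction by edgeR, where 0.647% of all tested genes were. With DESeq2 1 gene, Pdk4, was called lower, which is 3.03% of the 33 and near the 2.87% of all genes that DESeq2 called. An unadjusted p under 0.05 was reached by 3 lower genes, Ucp2, Pdk4 and Cpt1a, and by 0 higher ones, where 12.4% of all tested genes passed in either direction and 6.32% passed as lower. The groups did not overlap for 1 of the 33 genes, Pdk4, and for 8.07% of all tested genes. Of the 33 log2 fold changes 15 were above 0 and 18 below, with a median of −0.01, beside a median of 0.00 over all tested genes. For 19 of the genes the 95% interval of the log2 fold change lay within 1.5-fold (0.58 on the log2 scale) in both directions. For the other 14 a difference of 1.5-fold or more was not excluded at this spread.

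The pattern that the 33 genes showed most widely was a spread among the wildtype libraries. Wildtype replicate 2 was the lowest of the 8 libraries for 22 of the 33 genes (66.7%), where it was the lowest for 17.2% of all tested genes. Wildtype replicate 3 was the highest for 16 of them (48.5%), against 11.7% of all tested genes. The low place of wildtype replicate 2 was not particular to the 33 genes. It was also the lowest library for Acads, Acat1 and Ech1, other genes of mitochondrial oxidation, and for the cardiomyocyte genes Tnnt2, Myl2 and Pln. Others, such as Oxct1 and Actn2, were lowest elsewhere. The median deviation of the 33 genes from their own mean was −0.52 log2 CPM in wildtype replicate 2, −0.07 in replicate 4, 0.20 in replicate 1 and 0.26 in replicate 3. In the labelled group the same medians ran only from −0.09 to 0.08. The SD of log2 CPM was larger in wildtype for 26 of the 33 genes (78.8%), with medians of 0.38 in wildtype and 0.15 in the labelled libraries. Over all tested genes the wildtype SD was larger in 54.4%, with medians of 0.21 and 0.20. The labelled group thus sat in the middle of a wide wildtype range for most of these genes. The counts of genes above and below 0 moved with single libraries of either group. Without wildtype replicate 2, 7 genes were above 0 and 26 below (median −0.12). Without wildtype replicate 1 or 3 there were 23 above and 10 below in each case (medians 0.06 and 0.10), and without labelled replicate 4 there were 22 above and 11 below (median 0.07).

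**Figure D1:**
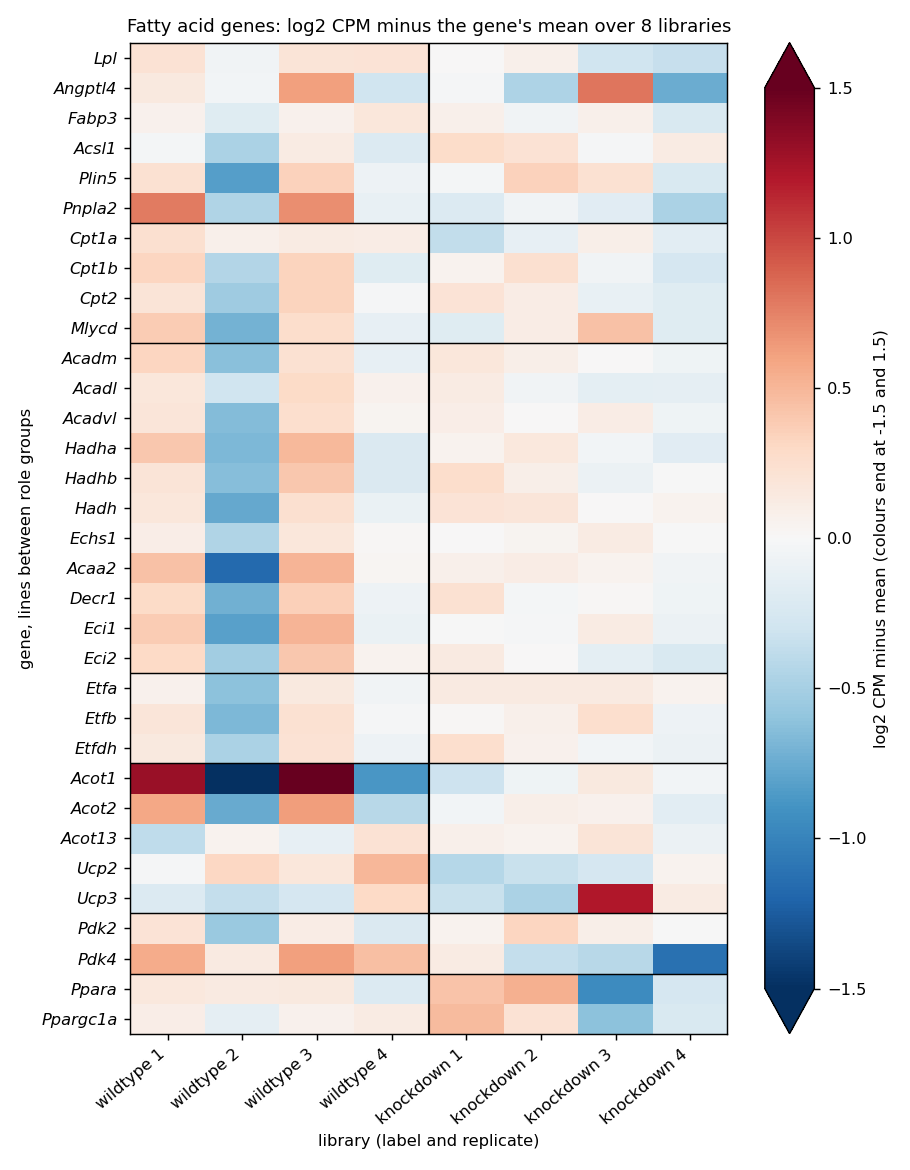
Heat map of log2 CPM minus each gene's mean over the 8 libraries, with genes in rows grouped by role and libraries in columns, red above and blue below the mean. The column of wildtype replicate 2 is blue for the oxidation enzymes, wildtype replicates 1 and 3 are red, and the labelled knockdown columns are pale for most genes.

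Other markers also differed between these libraries. Of the 7 atrial markers, 6 were tested, and Myl7, Sln and Bmp10 were at 0 in some libraries. The sum of all 7 was 330 to 2347 CPM in wildtype and 196 to 2028 CPM in the labelled libraries. In wildtype replicate 2, the highest, nearly all of it was Nppa (2308 CPM), the atrial natriuretic peptide gene that loaded ventricles also switch on, while the atrial genes Myl7 and Sln stood at 0.603 and 0.151 CPM. The 7 fibroblast markers summed to 1322 CPM in that library, to 547 to 895 CPM in the other wildtype libraries and to 558 to 853 CPM in the labelled libraries. The 12 cardiomyocyte markers summed to 46815 to 58838 CPM in wildtype and, without overlap, to 60191 to 68146 CPM in the labelled libraries. Only Myh6 and Actc1 of the 12 had groups without overlap, and the other 10 summed to 31244 to 37388 CPM and 35857 to 38848 CPM, which overlapped. The 8 endothelial markers, too, summed higher in every labelled library (672 to 859 CPM) than in any wildtype library (550 to 644 CPM). The 22 hepatocyte markers summed to 385 CPM in wildtype replicate 1, to 53.2 to 65.1 CPM in wildtype replicates 2 to 4, and to 312 to 390 CPM in the labelled libraries, with Alb and Apob among those at 0 in some libraries. The part of these differences in the levels of the fatty acid genes was not tested. Their direction moved with the libraries kept: in the 5 libraries with hepatocyte markers (wildtype replicate 1 and the labelled group) 4 of the 33 genes were above 0 and 29 below (median −0.17), and in the 5 with low Sln and Myl7, genes of atrial muscle (wildtype replicates 1 and 2 and labelled replicates 1 to 3) 26 were above and 7 below (median 0.17). The first subset holds 1 wildtype library and the second holds 2.

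The supply of fatty acids was led by genes of very high level. Fabp3, the fatty acid binding protein of heart muscle, had the highest level per gene length of the 33 genes, 2297 FPKM on average over the 8 libraries (read fragments scaled to gene length and library size, as the authors deposited them). Angptl4, a secreted inhibitor of lipoprotein lipase, had the lowest, 0.942 FPKM. Lpl, lipoprotein lipase, stood at 4080, 3372, 4012 and 4033 CPM in wildtype replicates 1 to 4 and at 3510, 3676, 2847 and 2757 CPM in labelled replicates 1 to 4. Wildtype replicate 2 lay inside the labelled range, and the other 3 wildtype libraries lay above it. The log2 fold change of Lpl was −0.28 (95% interval −0.56 to 0.01, SE 0.13, edgeR adjusted p = 0.419). Acsl1, the main acyl-CoA synthetase of the heart, leaned the other way, at 590 ± 101 CPM for wildtype against 718 ± 62.8 CPM for the labelled libraries (SD, n = 4 each; log2 fold change 0.28, edgeR adjusted p = 0.444). Fabp3 had −0.06 (edgeR adjusted p = 0.881), and Angptl4 −0.14, with labelled replicate 3 the highest of the 8 at 6.42 CPM and labelled replicate 4 the lowest at 1.86 CPM.

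At the lipid droplet, Pnpla2 encodes adipose triglyceride lipase, the enzyme that takes the first fatty acid from stored triglyceride. Its level was 547, 233, 516 and 294 CPM in wildtype replicates 1 to 4 and 276, 306, 282 and 229 CPM in labelled replicates 1 to 4. Wildtype replicates 1 and 3 stood far above all other libraries, and wildtype replicates 2 and 4 lay within the labelled range. The log2 fold change was −0.54 (95% interval −1.12 to 0.04, SE 0.26, edgeR adjusted p = 0.445). Plin5, the perilipin that tethers droplets to mitochondria and restrains the lipase, had 66.1 ± 21.1 and 71.4 ± 12.6 CPM (SD, n = 4 each; edgeR adjusted p = 0.902). Of the 10 adipocyte markers 5 were tested, all with a log2 fold change below 0. The sum of all 10 was 262 to 414 CPM in wildtype and 224 to 295 CPM in the labelled libraries. Most of it was Fabp4, at 236 to 298 CPM in wildtype and 205 to 270 CPM in the labelled libraries. The defining adipocyte genes Adipoq and Plin1 were near 0 in 7 libraries and at 10.6 and 10.8 CPM in wildtype replicate 3, and the part of adipocyte RNA in the level of Pnpla2 was not tested.

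Carnitine palmitoyltransferase 1 sets the rate of entry into mitochondria and comes in a muscle form, Cpt1b, and a liver form, Cpt1a. Cpt1a stood at 57.1, 51.0, 52.7 and 52.3 CPM in wildtype replicates 1 to 4 and at 37.2, 44.3, 51.2 and 43.0 CPM in labelled replicates 1 to 4. Only labelled replicate 3 reached into the narrow wildtype range. The log2 fold change was −0.28 (95% interval −0.51 to −0.05, SE 0.10), and it did not pass over all genes (edgeR adjusted p = 0.306, 0.223 to 0.818 over the alternatives). Hepatocyte markers were high in the labelled libraries and in wildtype replicate 1, the library with the highest Cpt1a. With their score as a covariate the log2 fold change was −0.38 (edgeR adjusted p = 0.561). Within wildtype the score was high only in replicate 1, so that fit rests largely on this library and cannot separate the score from the group. Cpt1b stood at 686, 403, 689 and 482 CPM in wildtype and at 569, 646, 527 and 459 CPM in the labelled libraries, in the order of replicates. Wildtype replicates 1 and 3 were the highest and wildtype replicate 2 the lowest (log2 fold change −0.04, 95% interval −0.45 to 0.37). Per gene length the muscle form led the liver form 17.9-fold to 29.7-fold in wildtype and 23.3-fold to 34.7-fold in the labelled libraries, and these ranges overlapped. Cpt2, which rebuilds acyl-CoA on the inner side, had −0.01 (95% interval −0.41 to 0.38). Mlycd, malonyl-CoA decarboxylase, which removes the inhibitor of carnitine palmitoyltransferase 1, had 0.05 (95% interval −0.48 to 0.59).

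The 11 enzymes of the beta-oxidation cycle had small differences between the groups and a shared order within wildtype. Their log2 fold changes lay between −0.15 and 0.18 (median 0.02), 6 above 0 and 5 below, and the adjusted p-values of edgeR ran from 0.774 to 0.983. All 11 were lowest in wildtype replicate 2, and 10 of them were highest in wildtype replicate 3. The acyl-CoA dehydrogenases open the cycle and differ by chain length: Acadvl (very long) had 0.04, Acadl (long) −0.12 and Acadm (medium) 0.05. Hadha stood at 1464, 696, 1555 and 957 CPM in wildtype replicates 1 to 4 and at 1147, 1235, 1082 and 986 CPM in labelled replicates 1 to 4. Hadhb, which shares the promoter region printed above, stood at 1125, 632, 1305 and 851 CPM and at 1184, 1046, 928 and 982 CPM. For both, wildtype replicate 3 was the highest and wildtype replicate 2 the lowest of the 8, and the labelled libraries lay between them. Their log2 fold changes were −0.07 (95% interval −0.58 to 0.44) and 0.08 (95% interval −0.37 to 0.53).

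Acaa2, the mitochondrial thiolase that cuts off acetyl-CoA, varied most within wildtype among these enzymes. It stood at 651, 214, 683 and 491 CPM in wildtype replicates 1 to 4 and at 506, 520, 498 and 462 CPM in labelled replicates 1 to 4. The SD of its log2 CPM was 0.77 in wildtype and 0.07 in the labelled libraries, and its log2 fold change was −0.04 (95% interval −0.72 to 0.64). Hadh, the dehydrogenase for short and medium chains, had 0.18 and Echs1, the short-chain hydratase, 0.07. The helpers for unsaturated fatty acids, Decr1, Eci1 and Eci2, had 0.02, −0.07 and −0.15. The 3 genes that pass the electrons on lay slightly above 0: Etfa had 0.20, Etfb 0.10 and Etfdh 0.08 (edgeR adjusted p of 0.654 to 0.894). Etfb and Etfdh fell below 0 in some alternatives. In the labelled group Etfa was at 380 to 404 CPM, and in wildtype at 239 to 405 CPM.

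**Figure D2:**
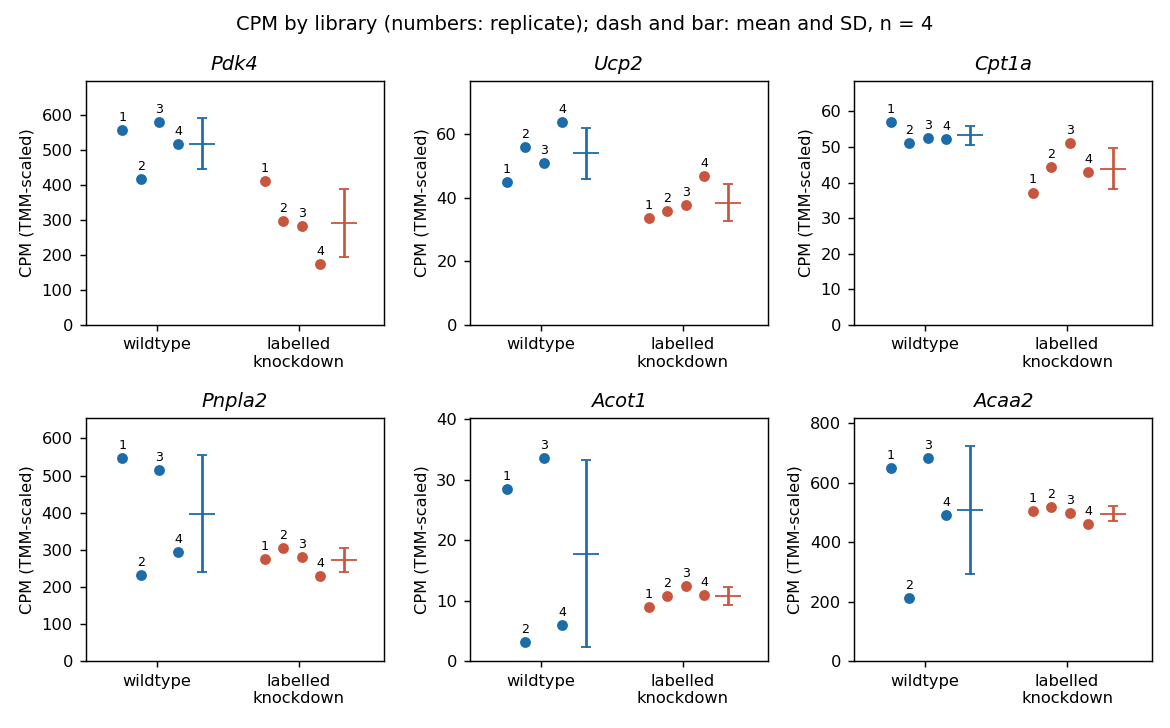
CPM of 6 genes in each library, wildtype in blue and labelled knockdown in red, with replicate numbers above the points and the mean and SD (n = 4) beside them. Pdk4 does not overlap between the groups, while Pnpla2, Acot1 and Acaa2 spread far more among the wildtype libraries than among the labelled ones.

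Acyl-CoA thioesterases release free fatty acid from acyl-CoA, in the cytosol (Acot1) or in mitochondria (Acot2 and Acot13). Acot1 stood at 28.4, 3.15, 33.5 and 5.93 CPM in wildtype replicates 1 to 4 and at 8.97, 10.8, 12.5 and 10.9 CPM in labelled replicates 1 to 4. Wildtype replicates 1 and 3 lay above and replicates 2 and 4 below the whole labelled group, and the SD of log2 CPM was 1.59 in wildtype and 0.19 in the labelled libraries. The log2 fold change of −0.72 therefore had a 95% interval of −2.37 to 0.94 (edgeR adjusted p = 0.752). Among the 5 libraries with hepatocyte markers, which hold wildtype replicate 1 alone of the wildtype group, Acot1 was called lower (log2 fold change −1.39, edgeR adjusted p = 0.0355), where 0.212% of all genes tested there were called. That fit assumes the single wildtype library scatters as the labelled ones do. Acot2 followed the same order in wildtype, 59.3, 23.2, 61.5 and 29.4 CPM, beside 38.3, 41.9, 41.4 and 35.4 CPM in the labelled libraries (log2 fold change −0.14, edgeR adjusted p = 0.898). Acot1 (chromosome 12, 84009490 to 84018371) and Acot2 (83987861 to 83993873) are neighbours on the plus strand. Their longest transcripts were 94.3% identical over 1330 aligned bases and shared a run of 273 bases, longer than a read of 150 bases, so reads may be split between them. Per gene length Acot2 was 3.28-fold to 13.2-fold above Acot1 in wildtype and 5.79-fold to 7.62-fold in the labelled libraries. Acot13 had a log2 fold change of 0.10 and was lowest in wildtype replicate 1.

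The uncoupling proteins Ucp2 and Ucp3 are carriers of the inner mitochondrial membrane, Ucp3 mainly in muscle and Ucp2 in many cells, leukocytes included. Ucp2 (chromosome 7, 100493337 to 100502020) stood at 44.9, 56.1, 51.1 and 64.0 CPM in wildtype replicates 1 to 4 and at 33.6, 35.9, 37.8 and 46.8 CPM in labelled replicates 1 to 4. The groups touched only through labelled replicate 4 and wildtype replicate 1. The log2 fold change was −0.49 (95% interval −0.79 to −0.19, SE 0.14), and did not pass over all genes (edgeR adjusted p = 0.169, 0.0538 to 0.828 over the alternatives). All 10 macrophage and leukocyte markers had a log2 fold change below 0, 0 of them called by edgeR, and their sum was 242 to 379 CPM in wildtype and 212 to 260 CPM in the labelled libraries. Their part in the level of Ucp2 was not tested. With the hepatocyte marker score as a covariate the log2 fold change of Ucp2 was −0.19 (edgeR adjusted p = 0.828). That score was high in all labelled libraries and, within wildtype, only in replicate 1, the wildtype library lowest in Ucp2. The fit therefore rests largely on this library and cannot separate the score from the group.

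Ucp3 (chromosome 7, 100472990 to 100486432, next to Ucp2) stood at 19.1, 17.1, 18.4 and 27.2 CPM in wildtype and at 17.3, 15.6, 51.3 and 24.01 CPM in the labelled libraries, in the order of replicates. Labelled replicate 3 stood apart, and the log2 fold change of 0.40 (edgeR adjusted p = 0.731) was −0.11 without it. Per gene length the ratio of Ucp3 to Ucp2 was below 1 in every wildtype library (0.678 to 0.946) and 0.971 to 3.02 in the labelled libraries. These ranges were narrowly apart, and no test was made of the ratio. Unlike Acot1 and Acot2, the Ucp2 and Ucp3 transcripts shared no run longer than 24 bases.

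Pdk4 gave the clearest separation. Pyruvate dehydrogenase kinase 4 phosphorylates and switches off the pyruvate dehydrogenase complex, and its gene is known to be induced by PPAR-alpha and by fasting. Pdk4 (chromosome 6, 5483351 to 5496309, minus strand) stood at 557, 416, 581 and 516 CPM in wildtype replicates 1 to 4 and at 410, 295, 283 and 173 CPM in labelled replicates 1 to 4. Each of the 4 labelled libraries was below each of the 4 wildtype ones, closest between labelled replicate 1 and wildtype replicate 2, and with upper quartile factors this pair overlapped. The log2 fold change was −0.83 (95% interval −1.34 to −0.32, SE 0.23), 1.78-fold lower. It did not pass over all genes by edgeR (adjusted p = 0.169) and passed by DESeq2 (adjusted p = 0.00825). Over the alternatives the adjusted p ran up to 0.702 and the log2 fold change from −1.05 to −0.55, always below 0. The smallest difference came from the 5 libraries without atrial markers, which hold wildtype replicates 1 and 2.

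Pdk2, the kinase isoform that the heart expresses at all times, had a log2 fold change on the other side of 0. It stood at 443, 260, 413 and 331 CPM in wildtype and at 398, 480, 406 and 382 CPM in the labelled libraries, in the order of replicates, and wildtype replicate 2 was again the lowest (0.20, 95% interval −0.16 to 0.57, edgeR adjusted p = 0.675). Per gene length, Pdk4 exceeded Pdk2 in every wildtype library, by 1.13-fold to 1.44-fold. In every labelled library it was below Pdk2, at 0.409 to 0.928 of its level. On the log2 scale this ratio was 0.38 ± 0.16 in wildtype and −0.73 ± 0.49 in the labelled libraries (SD, n = 4 each). A ratio within a library does not depend on how the libraries are scaled, and it was not tested, since the pair was chosen with earlier results known.

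**Figure D3:**
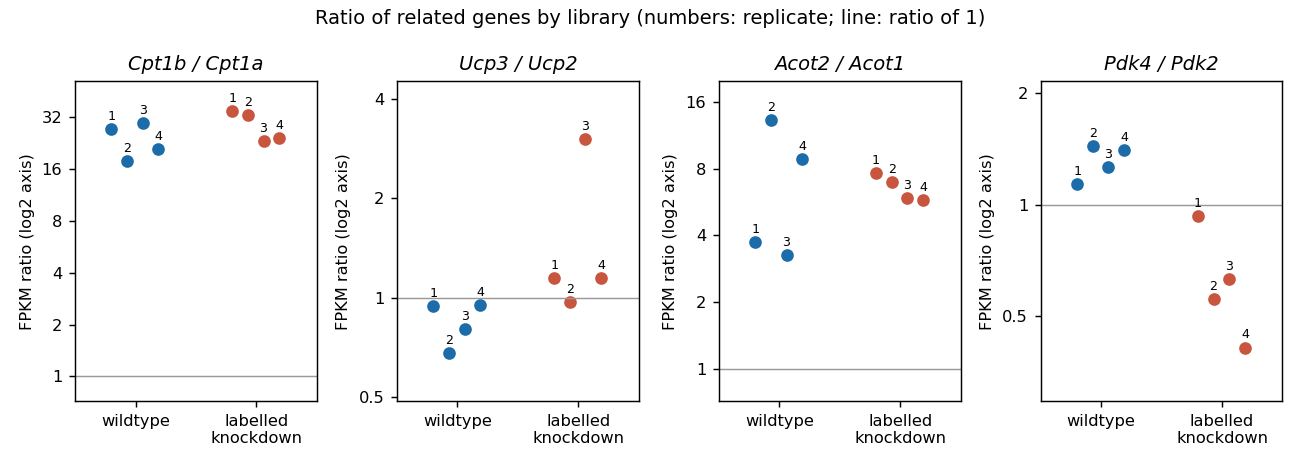
Ratio of deposited FPKM between related genes in each library on a log2 axis, wildtype in blue and labelled knockdown in red, with a line at a ratio of 1. The Pdk4 to Pdk2 ratio is above 1 in all 4 wildtype libraries and below 1 in all 4 labelled ones, while the Cpt1b to Cpt1a and Acot2 to Acot1 ratios overlap.

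The regulators had almost equal means in the groups and spread more in the labelled libraries, where the enzymes spread less. Ppara, the gene of PPAR-alpha, stood at 33.3, 32.8, 32.9 and 25.8 CPM in wildtype replicates 1 to 4 and at 40.1, 43.4, 15.3 and 24.8 CPM in labelled replicates 1 to 4. Ppargc1a, the gene of PGC-1alpha, stood at 84.9, 72.2, 82.8 and 86.4 CPM and at 111, 92.6, 51.5 and 67.5 CPM. For both genes, labelled replicates 1 and 2 were above every wildtype library and labelled replicates 3 and 4 below every one. Their log2 fold changes were −0.01 (95% interval −0.68 to 0.65) and −0.02 (95% interval −0.48 to 0.45), and the edgeR adjusted p-values were 0.993 and 0.985. The SD of log2 CPM of Ppara was 0.18 in wildtype and 0.68 in the labelled libraries, and that of Ppargc1a 0.12 and 0.49. In wildtype replicate 2, where the oxidation enzymes were lowest, Ppara was close to replicates 1 and 3, while Ppargc1a was at its lowest wildtype level. Whether the enzymes followed either regulator was not tested.

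**Figure D4:**
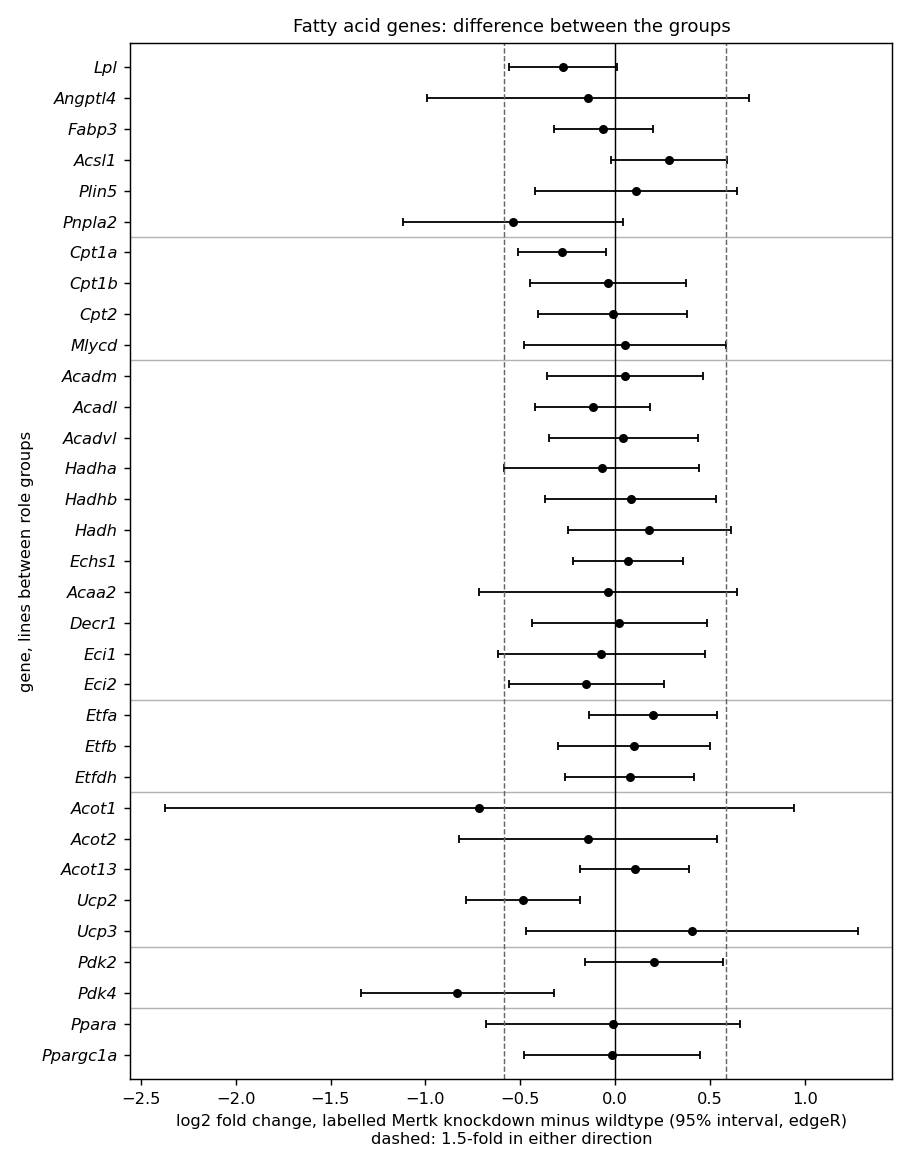
Log2 fold change of the 33 genes, labelled Mertk knockdown minus wildtype, with 95% intervals from edgeR and dashed lines at 1.5-fold in either direction. The intervals of Pdk4, Ucp2 and Cpt1a lie wholly below 0, those of 19 genes stay between the dashed lines, and that of Acot1 is the widest.

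Around these genes, a wider list of 111 other genes of fatty acid and pyruvate metabolism was examined, of which 107 were tested. By edgeR 0 of the 107 were called in either direction. Without adjustment, 11 were higher (10.3%) and 2 lower (1.87%) at p under 0.05, beside 6.11% and 6.32% of all tested genes. The median log2 fold change was 0.07. The groups did not overlap for 9 of the 107, and for 8.07% of all tested genes. Among these 9 were Lpin1, Rxrg, Pdhb, Acsl3, Nudt19, Decr2 and Tfam, described below. DESeq2 gave an adjusted p to 109 of the 111 and called 4 (3.67%), Lpin1, Rxrg and Pdhb higher and Lipe lower, a share near its 2.87% of all genes. Lpin1 encodes lipin 1, a phosphatidate phosphatase that also acts with PGC-1alpha. It stood at 114 to 127 CPM in wildtype and 141 to 181 CPM in the labelled libraries, without overlap (log2 fold change 0.50, SE 0.10, edgeR adjusted p = 0.0770). Rxrg, a retinoid X receptor of the kind that pairs with PPAR-alpha, had 34.1 ± 5.28 and 47.8 ± 2.98 CPM (SD, n = 4 each; log2 fold change 0.49, edgeR adjusted p = 0.123). Lipe, hormone-sensitive lipase, which acts after the enzyme of Pnpla2, had 54.4 ± 11.6 and 33.5 ± 7.39 CPM (SD, n = 4 each; log2 fold change −0.70, edgeR adjusted p = 0.172).

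Next to the pyruvate dehydrogenase kinases stood the complex that they switch off. Pdhb, a subunit of its first enzyme, was at 295, 339, 296 and 433 CPM in wildtype replicates 1 to 4 and at 519, 487, 469 and 474 CPM in labelled replicates 1 to 4, without overlap (log2 fold change 0.52, SE 0.13, edgeR adjusted p = 0.144). Dlat, the core enzyme of the complex, had 0.31 (edgeR adjusted p = 0.306). At the entry of fatty acids, Cd36, the fatty acid translocase, had −0.13 (edgeR adjusted p = 0.848). Gpihbp1, the endothelial anchor of lipoprotein lipase, had −0.35 (edgeR adjusted p = 0.230), and the acyl-CoA synthetase gene Acsl3 0.40 (edgeR adjusted p = 0.306).

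The carnitine carrier gene Slc25a20 had −0.05, Acacb, which makes the malonyl-CoA that restrains fatty acid entry, −0.08, Prkaa2, a catalytic subunit of AMP-activated kinase, 0.21, and Acaca, the cytosolic acetyl-CoA carboxylase, −0.24, none called by edgeR. In mitochondria and peroxisomes, Mcat, of mitochondrial fatty acid synthesis, had 0.26, Nudt19, a peroxisomal coenzyme A hydrolase, 0.25 and Decr2, the peroxisomal dienoyl-CoA reductase, 0.19, and among the regulators Tfam, which maintains mitochondrial DNA, had 0.25 and Esrra, an estrogen-related receptor that works with PGC-1alpha, 0.18. None of these 5 was called by edgeR (adjusted p of 0.252 to 0.585).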

How the data were processed

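The deposited table gives, for each of 8 libraries, whole-number read counts per gene and FPKM, per the file headers. Per the labels' protocols, libraries were made from poly(A) RNA with a dUTP-marked second strand, and both ends were read for 150 bases on an Illumina NovaSeq. The submitters' processing notes name mm10, StringTie 2.1.6, HISAT2 2.2.1, edgeR, DESeq2 and cutadapt 1.9, without the role of each. The annotation release, and whether the authors' counts used strand, are not given in the sources used here. Of the 33 genes 16 overlap another row, 11 on the opposite strand, but in 0 cases did that row reach 5% of the gene's count.

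Libraries were grouped by their titles. The deposited counts were tested with edgeR 4.0.16 (R 4.3.3; TMM, filterByExpr, glmQLFit with robust = TRUE, glmQLFTest, two-sided, no covariate) over all genes of all 8 libraries. SE is the fold change divided by the square root of F, and 95% intervals use the test's degrees of freedom. Log2 CPM used a pseudocount of 0.5. DESeq2 1.42.0 and limma 3.58.1 (log2 of the authors' FPKM + 1 or + 0.1) were alternatives, along with other factors, no filter, a replicate block, a hepatocyte covariate, 2 subsets of libraries and leaving out each library. Scripts were tested on simulated data. Replicates differed by more than counting noise in every pair (chi-square over its degrees of freedom at least 37.9, for genes with at least 20 counts). A count of 0 allowed up to 0.0506 CPM in the shallowest library (3 counts; counting error only).

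The genes, role groups, marker lists and alternatives were chosen with earlier results of these data known. Genes were named with values in every library where the unadjusted p was under 0.05, the groups did not overlap, or the gene belonged to a related pair or was a regulator. Of the wider list, the 2 of each part with the smallest p and Cd36, Slc25a20, Acacb and Esrra were named, and 1 gene that the rule names is not reported here. Lpl, Pnpla2, Hadha, Hadhb, Acaa2, Nppa, Myl7, Sln, Adipoq, Plin1, Fabp4, Myh6, Actc1 and Lipe were given in more detail after their values were seen. Promoters are RefSeq's, and transcript identity is from GENCODE M21 on the same build, by local alignment. The deposited position of 31 of the 33 genes equals that of M21.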

Additional observations from a re-analysis of the deposited data

Results flagged for a closer look

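In 3 of the 66 sets of 4 libraries examined (33 genes in 2 groups), 1 library lay far from the other 3 by Dixon's gap ratio, where chance gives about 1 in 20. Lpl was 3372 CPM in wildtype replicate 2, beside 4012 to 4080 CPM in the other wildtype libraries. Etfa was 379.5 CPM in labelled Mertk knockdown replicate 4, beside 401.7 to 403.5 CPM in the others, a small gap in a tight group. Ppara was 25.77 CPM in wildtype replicate 4, beside 32.81 to 33.31 CPM in the others.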

How the results depend on the processing

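Over all genes, the 115 calls of edgeR became 583 with DESeq2, 21 with log2(FPKM + 1), 39 with log2(FPKM + 0.1), 17 with the hepatocyte covariate, 42 in the 5 libraries with hepatocyte markers and 6 in the 5 without atrial markers. Leaving out 1 library gave 44 to 265 calls, the highest without wildtype replicate 1 and the lowest without labelled Mertk knockdown replicate 3. Among the 33 genes, 1 was called with DESeq2 (Pdk4) and 1 in the libraries with hepatocyte markers (Acot1), and 0 in every other alternative run. Of the wider list, 4 were called with DESeq2, 2 in the libraries with hepatocyte markers (Slc27a1 among them), and 0 to 1 when 1 library was left out (Ppargc1b without wildtype replicate 2, Lpin1 without labelled replicate 3). The number of the 33 genes without overlap was 2 with RLE factors (6.06%, beside 8.03% of all tested genes) and 0 with upper quartile factors (beside 8.19%). With log2(FPKM + 1) and with log2(FPKM + 0.1) it was 3 (9.09%, beside 7.67%). It was 17 of 33 (51.5%) in the libraries with hepatocyte markers, where 46.8% of all tested genes did not overlap, and 5 of 33 (15.2%) in those without atrial markers, where 23.2% did not. Leaving out 1 library gave 1 to 3 (3.03% to 9.09%), where 10.9% to 13.1% of all tested genes did not overlap.

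The replicate block, which pairs libraries of the same number, gave 24 calls over all genes and 0 among the 33. The labels share only a number: deviations of same-numbered libraries correlated at −0.08 to 0.23 over genes, and of the 4 pairs only the one numbered 4 matched best within its own number.

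The sign held in all 18 alternatives for 9 genes (Acot1, Acot13, Acsl1, Cpt1a, Etfa, Lpl, Pdk4, Pnpla2 and Ucp2), and changed in some for the other 24, none of which was called in any. Log2 fold changes of the opposite sign to those reported are given here, and their cause was not tested. With the hepatocyte marker score as a covariate they were Acadm −0.32, Acadvl −0.18, Decr1 −0.32, Echs1 −0.081, Etfb −0.16, Etfdh −0.14, Hadh −0.10, Hadhb −0.20, Mlycd −0.38, Pdk2 −0.12 and Plin5 −0.19. In the 5 libraries with hepatocyte markers they were Acadm −0.27, Acadvl −0.13, Decr1 −0.24, Echs1 −0.045, Etfb −0.10, Etfdh −0.086, Hadh −0.043, Hadhb −0.11, Mlycd −0.31, Pdk2 −0.081 and Plin5 −0.13. In the 5 libraries without atrial markers (under 11.3 CPM of Sln and Myl7) they were Acaa2 0.24, Acadl 0.033, Angptl4 0.17, Cpt1b 0.10, Cpt2 0.21, Eci1 0.14, Eci2 0.072, Fabp3 0.097, Hadha 0.11, Ppara 0.0052 and Ppargc1a 0.12. With log2(FPKM + 1) they were Acaa2 0.11, Cpt1b 0.0085, Cpt2 0.033, Eci1 0.030 and Hadha 0.018. With log2(FPKM + 0.1) they were Acaa2 0.11, Cpt1b 0.0087, Cpt2 0.034, Eci1 0.031 and Hadha 0.019. With the replicate block they were Acaa2 0.079, Cpt2 0.012 and Eci1 0.0068. With upper quartile factors the value of Cpt2 was 0.00080. Where leaving out 1 library changed the sign, the values ran over Acaa2 −0.29 to 0.14, Acadm −0.10 to 0.18, Acadvl −0.12 to 0.14, Acot2 −0.34 to 0.072, Angptl4 −0.61 to 0.081, Cpt1b −0.16 to 0.071, Cpt2 −0.16 to 0.10, Decr1 −0.15 to 0.15, Echs1 −0.044 to 0.14, Eci1 −0.27 to 0.10, Etfb −0.057 to 0.20, Etfdh −0.041 to 0.16, Fabp3 −0.12 to 0.0052, Hadha −0.25 to 0.098, Hadhb −0.073 to 0.25, Mlycd −0.12 to 0.20, Plin5 −0.077 to 0.26, Ppara −0.22 to 0.21, Ppargc1a −0.21 to 0.15 and Ucp3 −0.11 to 0.60. With 4 libraries a group, the spread among libraries, and not the counts per gene, limits what differences could be seen.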
